A study of Danio rerio with 16 samples.

Results

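The genes described here are 9 genes used as markers of microglia and other macrophages in the zebrafish: mpeg1.1, csf1ra, csf1rb, p2ry12, lcp1, coro1a, c1qa, c1qb and cd74a. They were taken by symbol from the 31901 genes of an eye table and a brain table of RNA sequencing, and each symbol matched 1 gene in both. All larvae were wild type and were raised from 6 to 120 hours post fertilization (hpf) in medium with 0.02% dimethyl sulfoxide (DMSO). The exposed groups also received 0.2 uM phenol isopropylated phosphate (IPP), an organophosphate flame retardant and plasticizer, and the control groups received the DMSO alone. The 16 libraries form 4 groups of 4, which are IPP eyes, DMSO eyes, IPP brains and DMSO brains. Nothing in the labels says that replicate libraries were taken from separate clutches, so each p-value reflects library-to-library spread alone, and that spread may be technical.

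Macrophages enter the zebrafish brain and retina early in development, clear dying neurons there and settle as microglia. Their survival and spread depend on the receptor Csf1r, which the ligands Csf1 and Il34 activate and which the zebrafish carries as the paralogs csf1ra and csf1rb. In zebrafish csf1ra also acts in xanthophores, the yellow pigment cells, so it does not mark macrophages alone. Among the other genes, lcp1 (L-plastin) and coro1a (coronin) encode actin-binding proteins of leukocytes, p2ry12 an ADP receptor of microglia, and mpeg1.1 a pore-forming protein of macrophages. The genes c1qa and c1qb encode chains of the complement component C1q, and cd74a encodes the invariant chain that escorts MHC class II molecules.

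Expression is given in FPKM, reads scaled by gene length and by a factor for each library. That factor was not simply the sum of the library's reads in the table. The total it implied lay below that sum in some libraries, such as brain IPP library 4, and above it in others, such as eye DMSO library 4. How it was derived is not stated. The reads behind the tables, rebuilt from FPKM and gene length, summed to 10.6 M to 12.5 M in the eye libraries and to 9.62 M to 16.3 M in the brain libraries. The tissue labels held: 10 eye markers, mostly genes of photoreceptors and the lens, summed to 8530 to 12341 FPKM in the eye libraries and to 2.87 to 68.4 FPKM in the brain libraries. The 9 matched brain markers, genes of hypothalamic, pituitary and forebrain cells among them, summed to 151 to 232 FPKM in the brain libraries and to 7.89 to 19.9 FPKM in the eye libraries. RNA of other tissues varied between libraries. The summed level of 24 skin genes ran from 2934 to 4529 FPKM in IPP eyes and from 2552 to 3873 FPKM in DMSO eyes, and from 50.3 to 2409 FPKM in IPP brains and from 107 to 2339 FPKM in DMSO brains. Liver and gut genes summed to 9550 FPKM in brain IPP library 4 and to 3601 FPKM in brain DMSO library 1, against at most 267 FPKM in any other brain library.

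The macrophage genes were rare transcripts in both organs. All 9 together took 174 to 282 reads per library in IPP eyes, 94 to 200 in DMSO eyes, 91 to 212 in IPP brains and 111 to 214 in DMSO brains. The most abundant of them lay near the middle of all detected genes. In DMSO eyes csf1ra exceeded 47.1% of the 24426 detected genes, and in DMSO brains lcp1 exceeded 50.6% of 24996. Per library csf1ra took 25 to 174 reads and lcp1 26 to 90, while no other member had more than 38 reads in any library, which limits the precision of its values.

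The order of the genes by length-scaled level differed at the top between the organs. In DMSO eyes csf1ra came first (1.75 ± 0.449 FPKM, mean ± SD, n = 4), before lcp1 (1.38 ± 0.289), p2ry12 (0.443 ± 0.354), csf1rb (0.310 ± 0.224), mpeg1.1 (0.114 ± 0.0757) and cd74a (0.102 ± 0.0813). In DMSO brains lcp1 came first (2.27 ± 0.607 FPKM), before csf1ra (1.23 ± 0.524), p2ry12 (0.729 ± 0.286), csf1rb (0.471 ± 0.286), cd74a (0.454 ± 0.275) and mpeg1.1 (0.298 ± 0.191). Neighbours in these orders overlapped in range, except lcp1 and p2ry12 in eyes. IPP libraries kept csf1ra before lcp1 in eyes and lcp1 before csf1ra in brains. The eye and brain tables may have been scaled separately, so levels across them are set side by side without a test.

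Of the lowest 3 genes, coro1a was listed at 0 in all 16 libraries. That listing cannot be read as absence, since hprt1, a gene that every cell uses, was also listed at 0 in every brain library. The gene coro1a lies on chromosome 3 from 30926364 to 30941362 on the minus strand (of a build that the sources used here do not name) and is the only member that overlaps another gene, cldni on the plus strand. For c1qb, IPP brains had 0.189, 0, 0 and 0.0702 FPKM against 0, 0, 0.0824 and 0.0868 FPKM in DMSO brains, and the sole eye value above 0 was 0.0894 FPKM, 1 read, in an IPP eye. For c1qa, 1 read was found in an IPP brain (0.0583 FPKM) and 1 in a DMSO eye (0.0849 FPKM). These C1q genes lie 6.66 kb apart on chromosome 21, and neither had enough reads for a comparison.

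**Figure D1:**
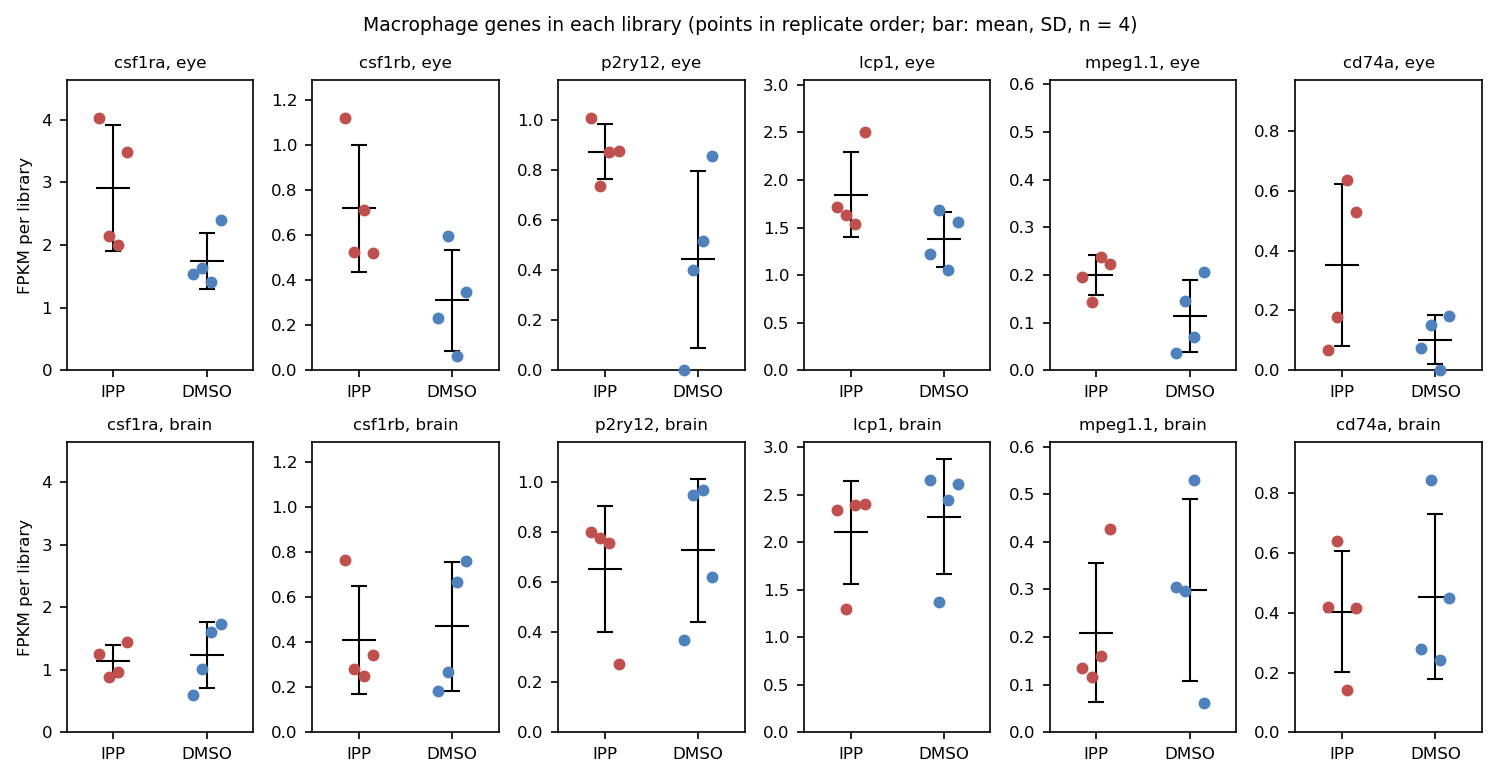
FPKM of 6 macrophage genes in each library, eyes above and brains below, with IPP to the left of DMSO in every panel. Points are libraries and bars give the mean and SD (n = 4). For csf1ra the IPP eyes stand between 2.00 and 4.03 FPKM and the DMSO eyes between 1.41 and 2.41, while the brain groups cover much the same range.

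The comparison of IPP with DMSO eyes asks whether the exposure altered these genes in the eye. Both Csf1 receptor genes had higher means in IPP eyes, and neither passed the test. The receptor gene csf1ra stood at 4.03, 2.14, 2.00 and 3.49 FPKM in IPP eyes against 1.54, 1.64, 1.41 and 2.41 FPKM in DMSO eyes. IPP libraries 1 and 4 lay above all DMSO libraries, and 3 DMSO libraries lay below all IPP libraries, so the groups overlapped through DMSO library 4. The log2 fold change on FPKM + 0.5 was 0.57 (SE 0.24), a 95% interval of 1.03-fold to 2.15-fold, with an unadjusted p of 0.0362 and an adjusted p of 0.426 by limma over 17096 genes. Its paralog csf1rb stood at 1.12, 0.524, 0.713 and 0.523 FPKM in IPP eyes against 0.233, 0.597, 0.0641 and 0.347 FPKM in DMSO eyes. These groups overlapped through DMSO library 2. Its log2 fold change was 0.61 (SE 0.27), a 95% interval that reached up to 2.32-fold and down to no change, and limma gave an unadjusted p of 0.05003 and an adjusted p of 0.453. In limma-voom on reads rebuilt from FPKM, the 0.5 is added to each read count and not to the FPKM. That fit put csf1rb at 1.42 on the log2 scale, with an adjusted p of 0.408 by limma-voom.

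The microglial ADP receptor gene p2ry12 had 1.01, 0.738, 0.873 and 0.876 FPKM in IPP eyes, against 0, 0.400, 0.516 and 0.858 FPKM in DMSO eyes. The IPP libraries were tightly grouped and the DMSO libraries were not, with no read in DMSO library 1 and 16 reads in DMSO library 4. The log2 fold change was 0.63 (SE 0.30), a 95% interval of 0.971-fold to 2.45-fold, with an adjusted p of 0.468 by limma. Without DMSO library 1 it was 0.35, and by limma-voom on the rebuilt reads it was 1.57 with an adjusted p of 0.477. The pan-leukocyte gene lcp1 had 1.72, 1.63, 1.53 and 2.50 FPKM in IPP eyes, against 1.22, 1.68, 1.06 and 1.55 FPKM in DMSO eyes. Of the IPP values, that of library 4 stood out and the other 3 lay near the top of the DMSO range. The log2 fold change of lcp1 was 0.32 (SE 0.19, 95% interval -0.12 to 0.75) with an adjusted p of 0.557 by limma, and 0.19 without IPP library 4.

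The other eye members lay below the filter of a mean of 0.5 FPKM and were not part of the test. The macrophage gene mpeg1.1 had 0.195, 0.144, 0.238 and 0.223 FPKM in IPP eyes, 25 reads in all, against 0.0365, 0.146, 0.0704 and 0.205 FPKM in DMSO eyes, 14 reads in all. The invariant chain gene cd74a had 0.0671, 0.179, 0.634 and 0.528 FPKM in IPP eyes, 21 reads in all, against 0.0755, 0.151, 0 and 0.182 FPKM in DMSO eyes, 6 reads in all. Only IPP libraries 3 and 4 stood above the DMSO range for cd74a, and the same held for mpeg1.1. In a fit without the filter, on log2(FPKM + 0.5), the log2 fold changes were 0.19 (SE 0.11) for mpeg1.1 and 0.45 (SE 0.23) for cd74a. The added 0.5 FPKM exceeded every mpeg1.1 value and, outside IPP libraries 3 and 4, every cd74a value. It thus shrank these fold changes and their SE. The ratio of mean FPKM, IPP over DMSO, was 1.75 for mpeg1.1 and 3.45 for cd74a, on few reads.

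Across the set, 0 of the 4 tested members were called in eyes. Nor was any other gene: limma called 0 of 17096 genes (0%), limma-voom called 0 as well, and 1886 genes (11.0%) had an unadjusted p below 0.05, csf1ra among them. For 380 genes (2.22%) every IPP eye lay above every DMSO eye, and no member was among these. In the fit without a filter, 7 of the 8 members with a read in eyes had a higher mean log2 level in IPP eyes, where 52.2% of all 25760 genes did, and in brains 2 of 8 did, where 54.0% of 26210 genes did. In eyes c1qb and c1qa entered that count on 1 read each, and the 2 higher in brains were c1qa and c1qb, the genes at or near 0. That count is a description of genes that share the same 8 libraries. Of the tested members, csf1rb and p2ry12 reached the filter only through their level in IPP eyes. In whole organs, fewer macrophages and less RNA per macrophage cannot be told apart, and the same holds for more of either.

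Genes of other tissues lay higher in IPP eyes along with the macrophage genes. Of the 22 skin genes tested, 18 had a positive log2 fold change, as 49.5% of all genes tested did, with a median of 0.32 against -0.00 over all genes, and 0 were called. The keratin gene krtt1c19e had 460, 429, 486 and 553 FPKM in IPP eyes against 293, 255, 466 and 352 FPKM in DMSO eyes (log2 fold change 0.53, SE 0.17, adjusted p = 0.350 by limma), and of the skin markers epcam was listed at 0 throughout. DMSO libraries 1 and 2 had the lowest summed skin levels, 2552 and 2566 FPKM, and DMSO library 1 was also the one with no p2ry12 read. With the mean log2 level of the skin genes as a covariate, a fit chosen after seeing the data, the log2 fold changes were 0.38 for csf1ra, 0.69 for csf1rb, 0.28 for p2ry12 and 0.23 for lcp1. The lowest adjusted p of these was 0.778 by limma. In the same order of genes, Pearson's r with the skin level was 0.69, 0.23, 0.83 and 0.54 over the 8 eye libraries. Over the 8 brain libraries, where the skin level varied more, it was 0.54, 0.09, -0.31 and 0.48. The part of skin RNA in the macrophage gene values was not tested in either organ. Connective tissue genes lay higher in 13 of 13 tested cases (median 0.19), liver and gut genes in 11 of 13 (median 0.19) and blood cell genes in 8 of 11 (median 0.26), and their part in the result was not tested. In IPP brains the counts were 14 of 22 for skin (median 0.16), 11 of 13 for connective tissue (0.29), 10 of 18 for liver and gut (0.06) and 9 of 10 for blood cell genes (0.44).

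**Figure D2:**
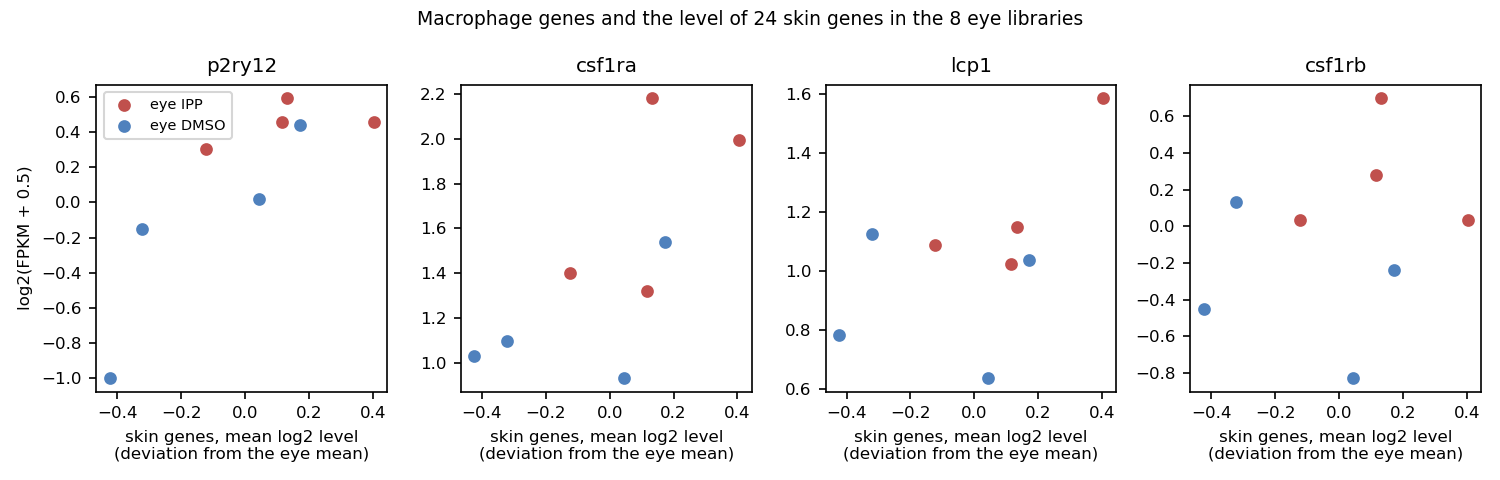
Level of 4 macrophage genes, as log2(FPKM + 0.5), against the mean log2 level of 24 skin genes in the 8 eye libraries, given as the deviation from the eye mean. The IPP libraries span -0.12 to 0.40 on the skin axis and the DMSO libraries -0.42 to 0.17. The library with the lowest skin level has the lowest p2ry12 value, while csf1rb shows no such order.

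In brains no member moved beyond the spread of its libraries. The receptor gene csf1ra had 1.25, 0.885, 0.972 and 1.45 FPKM in IPP brains against 0.604, 1.01, 1.60 and 1.73 FPKM in DMSO brains. The DMSO libraries lay on both sides of the IPP libraries. The log2 fold change was -0.04 (SE 0.27, 95% interval -0.66 to 0.58). Its paralog csf1rb, below the filter in brains, had 0.767, 0.282, 0.252 and 0.342 FPKM in IPP brains against 0.185, 0.270, 0.669 and 0.761 FPKM in DMSO brains.

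The gene p2ry12 had 0.802, 0.779, 0.759 and 0.275 FPKM in IPP brains and 0.371, 0.95, 0.969 and 0.623 FPKM in DMSO brains. Its lowest values were those of IPP library 4 and DMSO library 1, the libraries with the most liver and gut RNA. The part of that RNA in the p2ry12 values was not tested. The log2 fold change was -0.09 (SE 0.28, 95% interval -0.74 to 0.56). For lcp1, IPP brains had 2.33, 1.29, 2.39 and 2.40 FPKM and DMSO brains 2.65, 1.37, 2.44 and 2.61 FPKM. In each group library 2 was low and the other 3 agreed closely. The log2 fold change of lcp1 was -0.08 (SE 0.24, 95% interval -0.64 to 0.47).

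Below the brain filter, mpeg1.1 had 0.135, 0.116, 0.161 and 0.426 FPKM in IPP brains and 0.304, 0.297, 0.530 and 0.0619 FPKM in DMSO brains. The groups overlapped, and both the highest IPP and the lowest DMSO value came from the library numbered 4. The gene cd74a had 0.419, 0.641, 0.143 and 0.415 FPKM in IPP brains and 0.280, 0.844, 0.243 and 0.448 FPKM in DMSO brains. Of the 3 tested brain members 0 were called, each with an adjusted p of 1.0 by limma. Among all 17533 genes limma called 0 (0%), limma-voom also called 0, and 512 (2.92%) had an unadjusted p below 0.05, none of the members among them. Without brain DMSO library 1 and IPP library 4, both left out after seeing the data, csf1ra was at -0.33 with an adjusted p of 1.0 by limma.

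The difference of the IPP effect between eye and brain was tested as an interaction over 15856 genes. It was 0.61 on the log2 scale for csf1ra (SE 0.36, 95% interval -0.15 to 1.38), 0.72 for p2ry12 (SE 0.41, -0.15 to 1.58) and 0.40 for lcp1 (SE 0.31, -0.25 to 1.06). Each adjusted p was 1.0 by limma, so the larger values in eyes were not shown to differ from those in brains. Over all genes 0 (0%) were called, and 640 (4.04%) had an unadjusted p below 0.05, of which none was a member.

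**Figure D3:**
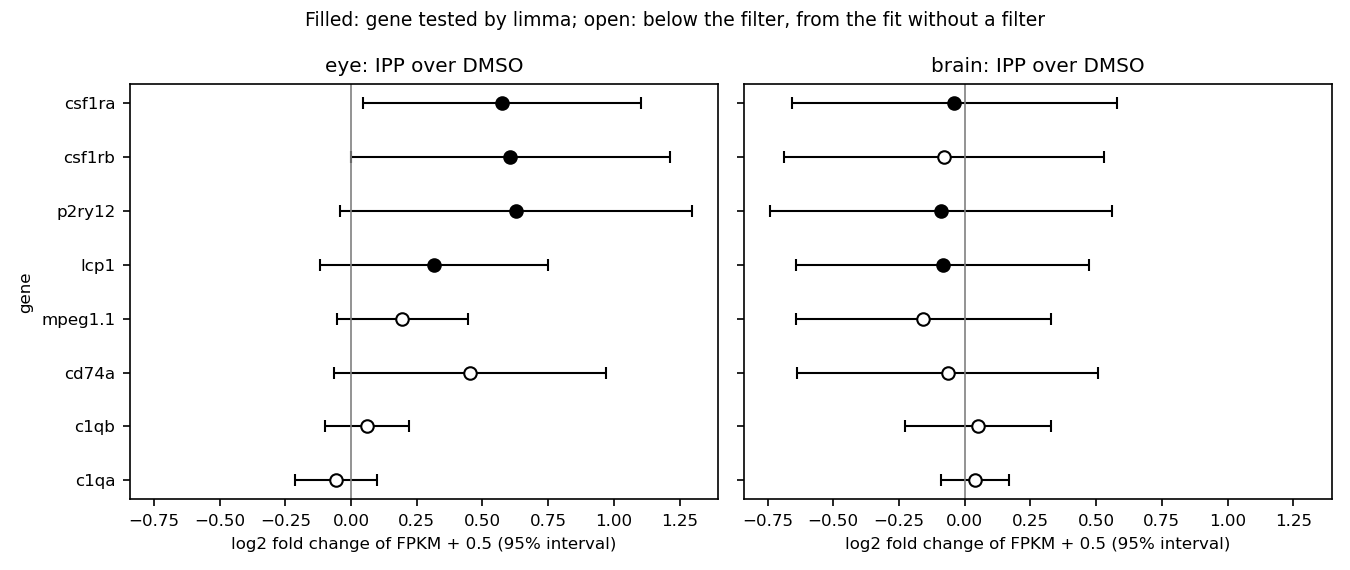
Log2 fold changes of IPP over DMSO for the 8 members with any read, eyes to the left and brains to the right, with 95% intervals. Filled points are genes tested by limma and open points are genes below the filter, taken from the fit without it. In eyes the points for csf1ra, csf1rb and p2ry12 lie at 0.57 to 0.63, and in brains all points lie between -0.16 and 0.05. The added 0.5 FPKM pulls the open points towards 0 and narrows their intervals. This holds most for c1qa and c1qb, which rest on 0 to 3 reads per group.

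Eyes and brains come from tables that may have been scaled separately. A ratio of a pair of genes within a library cancels any such scale, except for the 0.1 FPKM added to both genes. The ratio of csf1ra to lcp1, on FPKM + 0.1, was 1.24, 0.977, 1.31 and 1.52 in DMSO eyes against 0.256, 0.754, 0.668 and 0.674 in DMSO brains. All eyes lay above all brains, and the mean log2 ratio was 1.2 higher in eyes, a fold of 2.29. The share of all genes that separate the organs in such a ratio is not given here. The separation is thus not shown to be particular to csf1ra. The exact two-sided permutation test gave p = 0.0286, the smallest that 4 against 4 libraries allows, and 0.143 after adjustment over 5 ratios. For a ratio alone at that floor the adjusted p cannot be lower, however large the difference. In IPP libraries the ratio was 2.27, 1.3, 1.28 and 1.38 in eyes against 0.556, 0.706, 0.430 and 0.620 in brains. There too the tissues did not overlap, with a difference of 1.41 and the same exact permutation p of 0.0286 (adjusted p 0.143). With nothing added to the FPKM, an alternative also chosen after seeing the data, the differences were 1.49 in IPP libraries and 1.28 in DMSO libraries, again without overlap of the tissues. This denominator was chosen after seeing the data, because the planned one, mpeg1.1, rested on 1 to 18 reads per library.

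Against mpeg1.1 the difference of csf1ra was 1.35 on the log2 scale (DMSO eyes minus DMSO brains), with an exact permutation p of 0.114 and an adjusted p of 0.571. The ranges overlapped through brain DMSO library 4, which had 2 mpeg1.1 reads. The difference depended on the added constant, at 1.91 with none and 0.76 with 0.5 FPKM. In IPP libraries it was 1.2, with all eyes above all brains, an exact permutation p of 0.0286 and an adjusted p of 0.143. The share of all genes that separate in this ratio is not given either. The ratios of csf1rb, p2ry12, lcp1 and cd74a to mpeg1.1 differed between eyes and brains by 0.30, -0.12, 0.15 and -0.63 on the log2 scale. Their adjusted exact permutation p was 0.857 each. Ratios of coro1a, c1qa and c1qb were not formed, since these genes stood at or near 0.

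Xanthophores are the other cells in which csf1ra is known to act. The sugar transporter gene slc2a15a, 1 of the 13 genes on their list, had far higher values in the eye table. It had 15, 12.3, 10.3 and 11.3 FPKM in IPP eyes and 8.04, 9.18, 11.8 and 8.82 FPKM in DMSO eyes. In the brain table, which may have been scaled separately, it had 0.267, 0.307, 0.511 and 0.357 FPKM with IPP and 0.107, 0.352, 0.466 and 1.23 FPKM with DMSO. Between IPP and DMSO eyes its log2 fold change was 0.36 (SE 0.15, adjusted p = 0.428 by limma), and 7 of 11 tested xanthophore genes lay higher, with a median of 0.25. Their summed level ran from 61.5 to 76.6 FPKM in IPP eyes and from 53.3 to 72.0 FPKM in DMSO eyes, and none was listed at 0 throughout. In brains 5 of 8 tested xanthophore genes lay higher with IPP (median 0.09). The sum there ran from 44.7 to 77.4 FPKM in IPP brains and from 49.2 to 55.5 FPKM in DMSO brains. In both organs the sum holds pax7b, a gene that neural cells also express. The summed ranges of eyes and brains overlapped, unlike the values of slc2a15a. Values of the other genes on the list are not given here. How much of the csf1ra in eyes came from xanthophores was not tested.

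**Figure D4:**
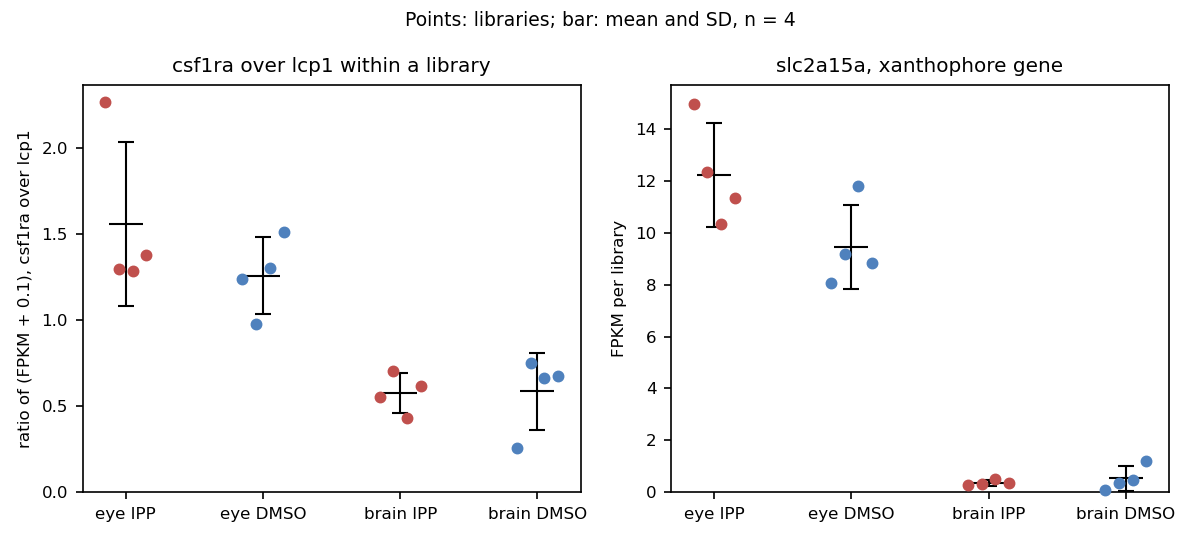
Left, the ratio of csf1ra to lcp1 (FPKM + 0.1) in each library of the 4 groups. Right, FPKM of slc2a15a, 1 of the 13 genes on the xanthophore list, in the same libraries. The summed level of the whole list, not drawn, overlapped between the organs. It ran from 53.3 to 76.6 FPKM in eyes and from 44.7 to 77.4 FPKM in brains. Points are libraries and bars give the mean and SD (n = 4). The ratio lies between 0.977 and 2.27 in eyes and between 0.256 and 0.754 in brains, and slc2a15a exceeds 8 FPKM in every eye library alone.

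The ligands of the Csf1 receptors showed no common direction. Of the 3 ligand genes, 1 lay higher and 2 lay lower in IPP eyes, with a median of -0.20, and the same split was found in brains, with a median of -0.06. The ligand gene csf1a averaged 2.70 ± 0.555 FPKM in IPP eyes and 2.08 ± 0.337 FPKM in DMSO eyes (log2 fold change 0.30, SE 0.18), while csf1b averaged 1.28 ± 0.551 FPKM in IPP eyes and 1.71 ± 0.405 FPKM in DMSO eyes (-0.35, SE 0.25). The gene il34, whose product guides microglial precursors to the zebrafish brain, had 0.758, 0.928, 1.76 and 2.40 FPKM in IPP brains against 0.608, 0.389, 1.06 and 0.974 FPKM in DMSO brains. IPP libraries 3 and 4 exceeded all DMSO libraries. These libraries also held 2409 and 2271 FPKM of summed skin genes, against 66.7 and 50.3 FPKM in IPP libraries 1 and 2, while DMSO library 4 held 2339 FPKM, and the part of that RNA in the il34 values was not tested. Its log2 fold change in brains was 0.60 (SE 0.33) with an adjusted p of 1.0 by limma, and in eyes -0.20 (SE 0.20).

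The transcription factors of the macrophage lineage split evenly in eyes, 4 higher and 4 lower of 8 tested (median -0.02). In brains 5 lay higher and 3 lower (median 0.02), where 53.1% of all genes tested lay higher, and 0 were called in either organ. The gene spi1a, a paralog of the myeloid master regulator PU.1, averaged 0.850 ± 0.158 FPKM in IPP eyes and 0.641 ± 0.210 FPKM in DMSO eyes (log2 fold change 0.25, SE 0.21). The gene irf8, needed for the macrophage fate in zebrafish, had 1.79, 1.03, 5.38 and 6.85 FPKM in IPP eyes against 1.2, 1.63, 2.62 and 1.92 FPKM in DMSO eyes. The gene cebpb, an inducible factor not limited to macrophages, had 5.35, 22.5, 137 and 172 FPKM in IPP eyes against 9.64, 14.7, 9.67 and 17.9 FPKM in DMSO eyes. For both genes IPP libraries 3 and 4 stood far above all other eye libraries, while IPP libraries 1 and 2 did not.

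In brains cebpb again stood at 84.4 and 90.1 FPKM in IPP libraries 3 and 4, against 7.38 and 11.4 FPKM in IPP libraries 1 and 2 and 9.25 to 16.3 FPKM in DMSO brains. The log2 fold changes were 1.70 (SE 0.92) in eyes and 1.22 (SE 0.79) in brains for cebpb and 0.62 (SE 0.47) in eyes for irf8, none of them called. Without IPP libraries 3 and 4, left out after seeing the data, they turned to -0.17, -0.37 and -0.29. The mpeg1.1 paralog mpeg1.2, named here after its values were seen, had 1.52, 2.04, 11.1 and 13.9 FPKM in IPP eyes against 1.49, 3.89, 4.75 and 4.18 FPKM in DMSO eyes. In brains it had 0.337, 0.270, 5.11 and 1.58 FPKM with IPP and 0.743, 1.33, 1.82 and 4.76 FPKM with DMSO, high in IPP library 3 and DMSO library 4. Skin genes summed to 2409 FPKM in IPP library 3 and to 2339 FPKM in DMSO library 4, but also to 2271 FPKM in IPP library 4, and their part in these values was not tested. Reads of related mpeg1 copies may be split between them, so their separate values are uncertain.

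**Figure D5:**
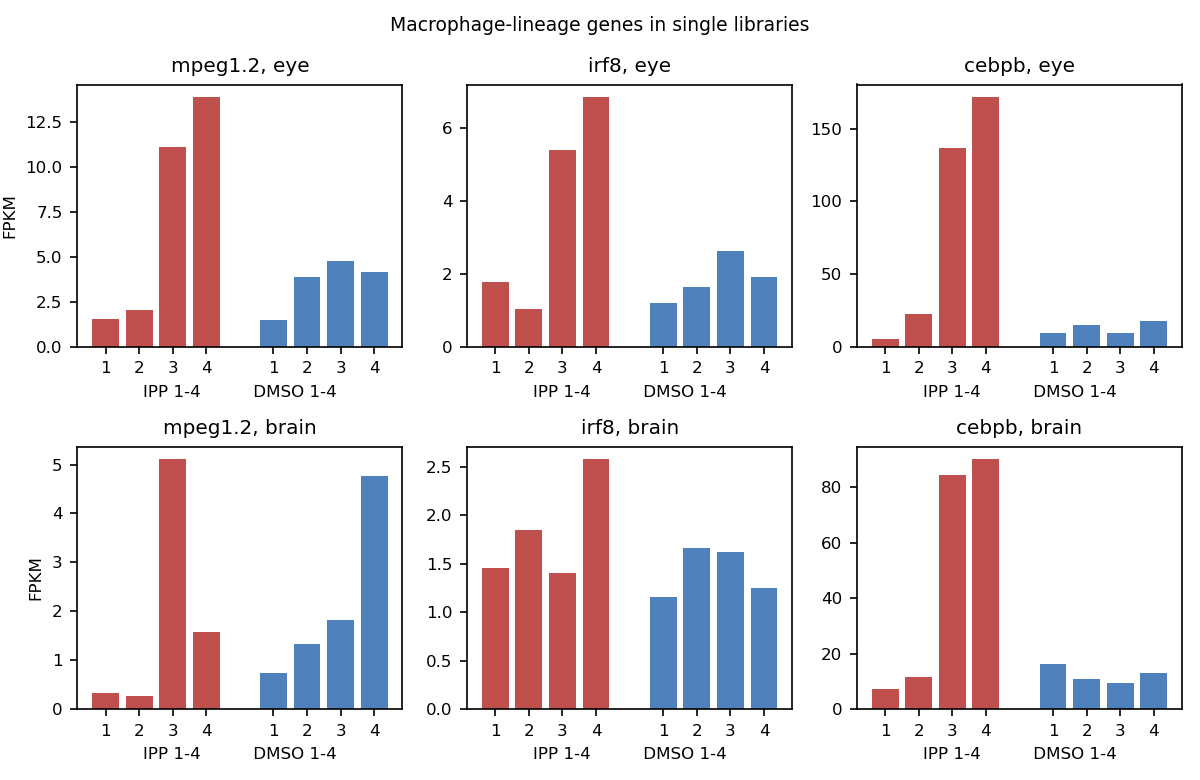
FPKM of mpeg1.2, irf8 and cebpb in each library, eyes above and brains below, IPP libraries 1 to 4 to the left of DMSO libraries 1 to 4. In eyes the IPP libraries 3 and 4 hold the highest values of all 3 genes, for instance 137 and 172 FPKM of cebpb. In brains the IPP libraries with these numbers do so for cebpb, though no label pairs them with the eye libraries.

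Further microglial genes did not move together. Of 11 tested microglia genes 5 lay higher and 6 lower in IPP eyes (median -0.03), and of 12 in brains 6 lay higher and 6 lower (median 0.03). The list held 21 genes, of which 17 matched and 3 of those were listed at 0 in every eye library. The gene havcr2, whose mammalian counterpart is an immune checkpoint receptor, averaged 1.97 ± 0.268 FPKM in IPP eyes and 2.64 ± 0.452 FPKM in DMSO eyes (log2 fold change -0.34, SE 0.17, adjusted p = 0.477 by limma). The TGF-beta receptor gene tgfbr1b, which many cell types express, had 6.19, 6.36, 5.10 and 3.42 FPKM in IPP eyes against 1.85, 0.850, 0.435 and 6.11 FPKM in DMSO eyes. Its groups overlapped through DMSO library 4, and its log2 fold change was 1.42 (SE 0.52, adjusted p = 0.386 by limma).

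Genes of phagocytosis and lysosomes, which microglia use to digest dead cells, lay higher in 3 and lower in 7 of 10 cases in IPP eyes (median -0.06). In brains 7 lay higher and 6 lower (median 0.02). The cathepsin S gene ctss2.2 had 2.31, 2.99, 2.79 and 2.50 FPKM in IPP eyes against 0.798, 1.33, 3.02 and 1.66 FPKM in DMSO eyes. Its groups overlapped through DMSO library 3 (log2 fold change 0.61, SE 0.28, adjusted p = 0.454 by limma). The scavenger receptor and fatty acid transporter gene cd36 averaged 3.72 ± 0.805 FPKM in IPP eyes and 5.50 ± 1.06 FPKM in DMSO eyes (-0.51, SE 0.19, adjusted p = 0.386 by limma). In brains cd36 had 11.2, 11.8, 12.8 and 53.1 FPKM with IPP against 10.3, 10.1, 9.89 and 10.3 FPKM with DMSO. All IPP brains lay above all DMSO brains, as they did for 0.958% of all genes tested there, and IPP library 4, rich in liver and gut RNA, was far above the rest (log2 fold change 0.75, SE 0.45, and 0.18 without that library). The lysosomal membrane gene lamp2 averaged 21.4 ± 3.25 FPKM in IPP brains and 18.3 ± 2.21 FPKM in DMSO brains (0.22, SE 0.13).

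The complement and Fc receptor genes lay higher in 5 of 5 tested cases in IPP eyes, with a median of 0.10 and 0 called, and in 3 of 8 in brains (median -0.07). Antigen presentation genes lay higher in 3 of 5 cases in eyes (median 0.17) and in 4 of 7 in brains (median 0.03). The MHC class I gene mhc1zba had 6.88, 8.48, 12.8 and 9.26 FPKM in IPP eyes against 6.83, 5.37, 9.54 and 9.0 FPKM in DMSO eyes (log2 fold change 0.27, SE 0.22). These medians stand against -0.00 over all genes tested in eyes and 0.01 in brains.

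The paralogs csf1ra and csf1rb varied together. Over the 16 libraries, each centred on its tissue mean of log2(FPKM + 0.5), Pearson's r was 0.74 and Spearman's rho 0.75, and r was 0.59 over 14 libraries without the pair farthest from the csf1rb median. Within eyes r was 0.70 and within brains 0.81, over 8 libraries each. Of the 28 pairs it had the highest r over the 16 libraries, but not in every subset. Without the 2 libraries farthest from its median p2ry12 with csf1ra reached 0.68, within eyes mpeg1.1 with p2ry12 reached 0.86, and within brains c1qb with csf1rb reached 0.88. All are descriptions of values that share library and depth. Centring on the tissue mean also leaves any difference between IPP and DMSO in these values. The genes lie on different chromosomes, csf1ra on chromosome 14 from 3143337 to 3180947 (minus strand) and csf1rb on chromosome 21 from 43854594 to 43877428 (plus strand). The gene cd74a lies 91.0 kb from csf1ra, and r of that pair was 0.18.

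Genes outside the set were ranked by their likeness to the mean pattern of csf1ra, lcp1 and p2ry12, the members tested in both organs. The 8 most alike of 11045 genes were oafb (r = 0.88), nid1b (0.85), mapk13 (0.84), slc35c1 (0.83), ptk7a (0.83), retreg1 (0.82), zdhhc8b (0.81) and tgfbrap1 (0.80), over the 16 tissue-centred libraries. Of these, nid1b encodes a basement membrane protein and mapk13 a p38 kinase, and none was on a macrophage list used here. Centring on the tissue mean leaves any difference between IPP and DMSO in the pattern, so the ranking also picks genes for that difference. A ranking of so many genes always has a top, and how high r reaches for unrelated genes was not tested.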

How the data were processed

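RNA of dissected eyes and dissected brains of zebrafish larvae was sequenced, per the labels, in paired reads of 150 bp with 40 M as the nominal yield. The authors deposited a table of FPKM for each tissue, made with HISAT2 2.0.5 and featureCounts 1.5.0-p3 per the submitters' processing notes, which give no roles. Build, annotation and FPKM formula are not stated, and the labels describe a directional and a non-directional preparation, so strand use is unclear. FPKM times gene length gave whole reads (within 0.01) for 100% of values, so depth was rebuilt.

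Within a tissue, a gene was tested where its 8 libraries averaged 0.5 FPKM or more. The test was limma 3.58.1 (R 4.3.3) on log2(FPKM + 0.5) (eBayes with trend, two-sided, Benjamini-Hochberg over all genes, threshold 0.05). Genes below that filter were fitted only without it. Differences between tissues were tested as an interaction, and ratios within a library by an exact permutation test over 70 arrangements (scipy 1.17.1), adjusted over the 5 ratios that could be formed, where 8 had been planned. The limma fits within a tissue were also run on simulated data. The outcome is not given here, so how large a change could be called at these levels is not stated. Alternatives were other pseudocounts, filters, scalings, weights and tools, the replicate number as a block, and leaving out each library; those chosen after seeing the data are named as such.

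The members and the 16 other gene lists (254 entries, 227 matched by symbol) were chosen with earlier results of these data known. Named genes are the members, up to 4 per list with the smallest unadjusted p, of which the text gives some, and the 8 most alike in pattern. Genes given outside that rule, after their values were seen, are mpeg1.2, hprt1 and epcam. Members matched the reference gene tables in 9 of 9 cases.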

Additional observations from a re-analysis of the deposited data

Results flagged for a closer look

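In 8 of the 69 groups of 4 libraries behind the genes given with values, 1 library stood apart from its group by Dixon's criterion. Chance gives about 1 such group in 20. Of the groups marked, 7 belong to the 29 groups of members with any read. In 3 of these (c1qb in IPP eyes, c1qa in IPP brains and c1qa in DMSO eyes) 3 libraries stood at 0 and 1 library held a single read, which the criterion always marks, so the rate of 1 in 20 does not apply to them.

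Brain IPP library 4 stood apart in 4 of the 8. It was low for p2ry12, at 0.275 FPKM where the other IPP brains had at least 0.759, and high for mpeg1.1, at 0.426 FPKM where the others had at most 0.161. It was also high for cd36, at 53.1 FPKM against at most 12.8, and held the only c1qa read of the brains, 0.0583 FPKM. The same library had 9550 FPKM of summed liver and gut genes. The part of that RNA in these values was not tested.

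The leukocyte gene lcp1 was low in brain IPP library 2 (1.29 FPKM, the others at least 2.33) and in brain DMSO library 2 (1.37 FPKM, the others at least 2.44). The remaining marks rest on 1 read each: c1qb at 0.0894 FPKM in an IPP eye and c1qa at 0.0849 FPKM in a DMSO eye.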

How the results depend on the processing

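No member was called under any alternative run. Leaving out 1 eye library at a time gave 0 to 3 called genes (3 without DMSO library 4, 1 without IPP library 1), none a member. The eye fold changes of csf1ra, csf1rb, p2ry12 and lcp1 stayed positive under every alternative, over log2 ranges of 0.38 to 0.71, 0.40 to 1.42, 0.28 to 1.57 and 0.19 to 0.40. Of these, csf1rb and p2ry12 reached the filter only through their level in IPP eyes, so their lasting sign adds no support. In brains the sign was not settled: leaving out single libraries gave csf1ra -0.24 to 0.10, lcp1 -0.26 to 0.086 and p2ry12 -0.24 to 0.091. Library quality weights put brain p2ry12 at 0.0066 and leaving out IPP libraries 3 and 4 put it at 0.10. Without those libraries cebpb was -0.17 in eyes and -0.37 in brains and irf8 -0.29 in eyes. The eye minus brain ratios to mpeg1.1 turned sign in IPP libraries, to 0.40 for p2ry12 and -0.21 for lcp1. With a pseudocount of 0.5 FPKM that of lcp1 was -0.19. Ratios to lcp1, a different quantity, also differed in sign from the DMSO ratios to mpeg1.1. In IPP libraries p2ry12 over lcp1 was at 0.61, or 0.70 with no pseudocount. In DMSO libraries csf1rb over lcp1 was at -0.066 with no pseudocount. For ratios to mpeg1.1, leaving out single libraries gave -0.046 to 0.93 for csf1rb, -0.42 to 0.37 for p2ry12 and -0.11 to 0.61 for lcp1. There 4 against 3 libraries cannot reach an exact permutation p below 0.05. The cause of these shifts was not tested. Within a tissue, deviations of same-numbered IPP and DMSO libraries had a mean r of -0.01 in eyes and 0.13 in brains. For libraries of other numbers it was 0.004 in eyes and -0.03 in brains. In brains r ran from -0.09 to 0.33 for the same number and from -0.48 to 0.39 for other numbers. A fit with the replicate number as a block called 0 genes, with csf1ra in eyes at an adjusted p of 0.435 by limma. Same-numbered eye and brain libraries were not compared in this way, and no label pairs them. The interaction and the ratio tests treat eye and brain libraries as independent, which was not tested. A denominator of lcp1 and coro1a together was not run, since coro1a was listed at 0. In DMSO libraries p2ry12 and cd74a gave no ratio without a pseudocount.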

Other observations

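Other blood cell types of the immune system gave no common direction either. Pan-leukocyte genes lay higher in 7 and lower in 4 of 11 tested cases in IPP eyes (median log2 fold change 0.08) and higher in 6 and lower in 7 of 13 in brains (median -0.01). The lymphoid transcription factor gene ikzf1 lay lower in all IPP eyes, at 0.541, 0.649, 0.802 and 0.188 FPKM, against 1.07, 1.21, 0.967 and 1.03 FPKM in DMSO eyes (log2 fold change -0.63, SE 0.23, adjusted p = 0.391 by limma), and was not called. It was picked by its small unadjusted p, and 11.0% of the 17096 genes tested in eyes had one below 0.05 by limma. The share of all genes lower in every IPP eye is not given here. Neutrophil genes lay higher in 2 and lower in 4 of 6 tested cases in eyes (median -0.05) and in brains (median -0.17). T and B cell genes lay higher in 4 of 5 tested cases in eyes (median 0.11) and in 3 of 5 in brains (median 0.03).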
